A study of Mus musculus with 64 samples.

Results

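The 10 genes described here encode interferon beta (Ifnb1), the subunits of the type I interferon receptor (Ifnar1, Ifnar2) and of the type II interferon receptor (Ifngr1, Ifngr2), the DNA sensor cGAS (Cgas), the adaptors TRIF (Ticam1) and MAVS (Mavs), and the kinases TBK1 (Tbk1) and IKK epsilon (Ikbke). They were taken by name from the 55487 genes counted in each library, and all 10 were among the 14537 genes whose counts were high enough to be tested. Bone marrow-derived macrophages (BMMs) of mice with (Ahr+/+) or without (Ahr-/-) the aryl hydrocarbon receptor, a ligand-activated transcription factor, were sequenced as 64 mRNA libraries in 16 groups of 4. The study asked how AhR ligands alter the transcriptome of activated macrophages and which of those effects need the receptor.

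The Ahr+/+ animals were C57BL/6JRj mice and the Ahr-/- animals carried a germline deletion on a C57BL/6 background, backcrossed to the former, so every cell type of the knockout lacked the receptor. Marrow of 4 mice per genotype was differentiated in medium enriched for macrophage colony-stimulating factor. The BMMs of each genotype were exposed for 6 h to the vehicle dimethyl sulfoxide (DMSO, 0.01%), to 1 µM of the polycyclic hydrocarbon benzo[a]pyrene (BaP) or to 10 µM of the plant compound indole-3-carbinol (I3C). They were then activated with heat-killed Salmonella Enteritidis (hk S.E., 10000000 per ml) for 3 h or 20 h. Unactivated BMMs after DMSO were collected at 3 h and at 20 h, and BaP and I3C were given only to cells that were then activated. A replicate number was not stated to stand for the same mouse across groups, so p-values measure the spread between these libraries.

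Bacterial products reach TBK1 and IKK epsilon through TRIF below Toll-like receptors, through MAVS below cytosolic RNA sensors and through STING below cGAS. Both kinases phosphorylate interferon regulatory factors, which, with NF-kB, switch on Ifnb1. Secreted interferon beta binds IFNAR1 and IFNAR2 and starts JAK-STAT signalling, which induces many genes of the sensing route itself, whereas IFNGR1 and IFNGR2 together bind interferon gamma.

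Ifnb1 is a gene without introns at chr4:88522025-88522774 on the minus strand (mm10, GENCODE). Its upstream region is shown because it is the textbook enhancer on which interferon regulatory factors and NF-kB act. Promoter positions here count from the RefSeq start, which for Ifnb1 and Tbk1 lies further upstream than the GENCODE start. The bases from 170 to 81 before the RefSeq start (chr4:88522875-88522964, GRCm38.p6, minus strand) are given 5′ to 3′. Capitals mark matches to AANNGAAA (an interferon regulatory factor core) and, as the last run, to an NF-kB site of 10 bases.
Ifnb1: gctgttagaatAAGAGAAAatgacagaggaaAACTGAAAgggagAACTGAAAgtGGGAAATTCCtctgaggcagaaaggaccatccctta
All 10 genes matched a promoter of 250 bases before to 50 after the start, and 32851 promoters were searched on both strands. The NF-kB site occurred in 0.11% of all promoters and, among the 10, in Ifnb1 alone, beginning 116 bases before the start. AANNGAAA, a motif added after this sequence had been read, was present in 23.9% of promoters and at least 2 times in 5.34%. Ifnb1 held it 3 times and Ikbke 1 time. A longer motif for these factors, GAAA repeated after any 2 bases, was in none of the 10 windows and in 3.44% of all.

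The core of the AhR response element, GCGTG, was found in the windows of 7 genes (Ifnb1, Ifnar1, Ifngr1, Cgas, Tbk1, Ticam1 and Mavs) and in 32.4% of all promoters. The matches of Cgas (bases 6 and 9) and the match of Ifnb1 (base 42) lay after the start and not upstream. The study searched a longer stretch, upstream of the start only, and for further AhR elements as well. It listed no element for Cgas, and at least 1 each for Ifnar1 and Ifnar2. Tbk1 had 3 matches, more than the other 9 genes, and 11.1% of all promoters had 2 or more. Its window from 225 to 11 bases before the RefSeq start (chr10:121586805-121587019, GRCm38.p6, minus strand) is shown. It was chosen because Tbk1 had the lowest p among the 10 genes under either ligand. Capitals mark CACGC, which is GCGTG read on the other strand.
Tbk1: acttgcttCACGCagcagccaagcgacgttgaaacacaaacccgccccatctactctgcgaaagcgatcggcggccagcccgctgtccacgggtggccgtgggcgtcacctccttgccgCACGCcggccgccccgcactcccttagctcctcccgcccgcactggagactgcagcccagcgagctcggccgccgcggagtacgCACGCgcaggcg
A short motif of this kind is a description of the letters and not of a bound site.

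Of the receptor genes, 3 are neighbours on the plus strand of chromosome 16 of mm10. Ifnar2 lies at chr16:91372783-91405589, Ifnar1 at chr16:91485238-91507441 and Ifngr2 at chr16:91547072-91565623, and the span from the first to the last holds 5 protein-coding genes in 192841 bases. Il10rb, which encodes a subunit of the interleukin-10 receptor, sits between Ifnar2 and Ifnar1. The readthrough gene Gm21970 shares 9.46% of the exon bases of Ifnar2 on the same strand, and reads there could not be assigned to either. Ifngr1 stands apart at chr10:19591949-19610229 (plus strand), on the chromosome of Tbk1 (chr10:121546455-121586787, minus strand). Cgas lies at chr9:78430526-78443237, Ikbke at chr1:131254343-131279606, Ticam1 at chr17:56269319-56276786 (all minus strand) and Mavs at chr2:131234063-131248025 (plus strand).

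Library totals ran from 12152496 to 50644601 reads in genes, apart from 1 unactivated Ahr+/+ library (20 h, replicate 4) with 233047331. Macrophage markers summed to at least 17319 CPM (counts per gene scaled to library size) in every library, against at most 0.801 CPM for T, B or NK cell markers, 147 for neutrophil, 2.24 for plasmacytoid dendritic cell, 2.39 for conventional dendritic cell and 10.3 for fibroblast markers. A count over the whole Ahr gene includes exons that a targeted deletion can leave in place, so it is no check of the genotype. Its level was higher in Ahr-/- BMMs (log2 difference 0.88, SE 0.21 with hk S.E. at 3 h, edgeR adjusted p = 0.00453). The AhR repressor gene Ahrr, a known AhR target, rose with BaP at 3 h in Ahr+/+ BMMs (log2 difference 3.36, SE 0.26, adjusted p = 7.13e-14) and had a log2 difference of -0.33 (SE 0.46, adjusted p = 0.859) in Ahr-/- BMMs. Among the Ahr-/- libraries, replicates 1 and 2 stood apart from replicates 3 and 4: in 7 of 8 groups they lay above them on the first principal component (23.7% of variance). The library identifiers fall into 4 numbered series whose meaning the labels do not give. All 12 activated Ahr+/+ libraries of 20 h belonged to one series, and all 12 activated Ahr-/- libraries of 20 h to another, so genotype and series cannot be told apart there.

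hk S.E. changed every one of the 10 genes at 3 h, in the same direction in both genotypes: 8 were higher and 2, Ifngr1 and Mavs, were lower, at an adjusted p below 0.01. In Ahr+/+ BMMs 56.6% of all tested genes were called at 3 h (24.2% higher, 32.3% lower), and in Ahr-/- BMMs 57.3% (25.5% higher, 31.8% lower). Activated and unactivated libraries did not overlap for any of the 10 genes at 3 h in either genotype, against 62.8% and 55.2% of all genes. By 20 h, 7 genes were called higher and 2 lower in Ahr+/+ BMMs (background 58.6%, 29.9% higher and 28.7% lower), and 6 higher and 2 lower in Ahr-/- BMMs (background 54.3%, 28.3% and 26.0%). The median log2 difference of the 10 genes was 1.26 in both genotypes at 3 h, where that of all genes was -0.10 and -0.08, and 0.85 and 0.72 at 20 h, where that of all genes was -0.00073 and 0.02. A change in a bulk library does not separate RNA per cell from the share of cells.

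Ifnb1 transcripts were all but absent from unactivated BMMs. Of the 16 unactivated libraries 12 held no read of it, and the other 4 held 0.0474, 0.0304, 0.0202 and 0.0230 CPM. Activated Ahr+/+ BMMs at 3 h had 13.8, 22.3, 13.2 and 17.8 CPM (mean 16.8 ± 4.19, SD, n = 4), and activated Ahr-/- BMMs had 6.66, 3.8, 17.6 and 16.7 CPM (11.2 ± 6.97). At 3 h every activated library was therefore far above every unactivated one, and the Ahr-/- libraries split into a low and a high pair. Because the unactivated side rests on 1 read in each genotype, the ratio was taken from summed counts per summed library size: 1741 in Ahr+/+ BMMs (95% exact interval 312 to 68847, counting error only) and 1260 in Ahr-/- BMMs (226 to 49841).

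The Ifnb1 signal had largely gone by 20 h. Activated Ahr+/+ BMMs then had 0.494, 0.598, 1.48 and 1.02 CPM (0.898 ± 0.449), which was 0.0558 of the 3 h level by summed counts (0.0459 to 0.0673). Activated Ahr-/- BMMs had 0.0950, 0.112, 0.368 and 0.110 CPM (0.171 ± 0.131), or 0.0141 of their 3 h level (0.00881 to 0.0215). The libraries of 20 h lay below those of 3 h without overlap in both genotypes, and above the unactivated ones. Against unactivated BMMs of 20 h the summed ratio was 61.3 (27.4 to 170) in Ahr+/+ and 22.7 (3.68 to 938) in Ahr-/- BMMs. The former rests on 122 reads against 6, all 6 from the library of the highest total, and the latter on 22 against 1. A second ratio left out the 1 library that held the unactivated reads and set a floor of 3 counts over the other 3. For Ahr+/+ BMMs this ratio was 460 after 3 h of hk S.E. and 28.2 after 20 h. The knockout gave 298 and 5.30, in the same order. Counting error of the activated reads is left out of these ratios, so they are not lower bounds. The exact intervals given above begin below each of them. In Ahr-/- BMMs at 20 h the edgeR adjusted p was 0.0128, that of DESeq2 0.000755, and with a replicate block 0.000344. Without replicates 1 and 2 it was 0.00236. By uniquely aligned reads, no other interferon gene approached these levels. Of 20 further interferon genes counted, none passed the filter on low counts. The highest sum over all 64 libraries was 45 reads, for Ifng. Reads that aligned to more than 1 place were not counted, so counts of genes alike in sequence are lower bounds.

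**Figure D1:**
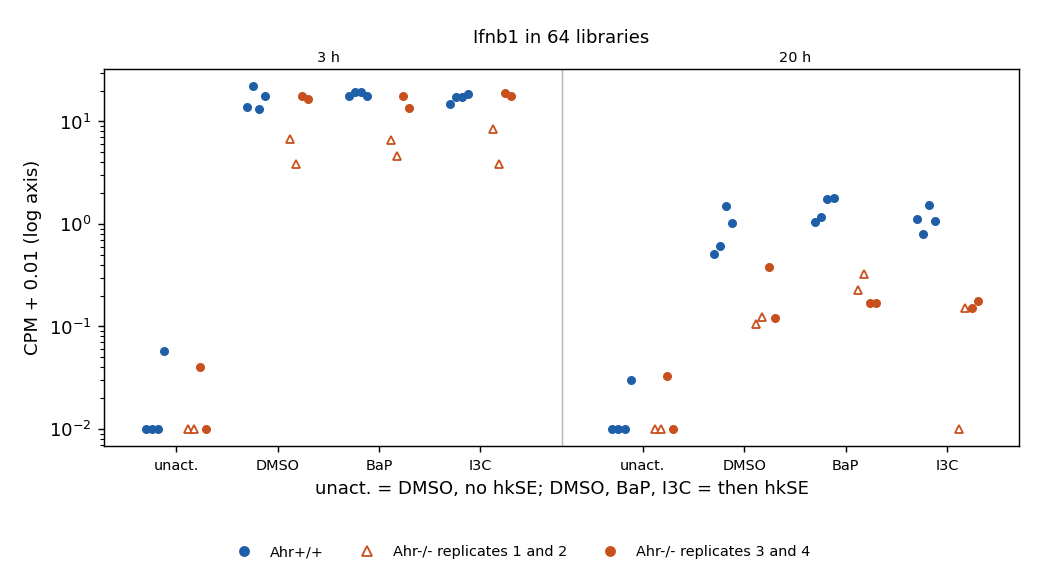
Ifnb1 in each of the 64 libraries, as CPM + 0.01 on a log axis, by group; for Ahr-/- BMMs, open triangles are replicates 1 and 2 and filled circles replicates 3 and 4. Activated libraries of 3 h lie between 3.8 and 22.3 CPM, those of 20 h at or below 1.79 CPM, and unactivated libraries at or below 0.0474 CPM.

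The subunits of the interferon beta receptor both rose with activation. IFNAR1 is the signalling chain with low affinity, and its transcript Ifnar1 went from 169, 176, 200 and 184 CPM in unactivated Ahr+/+ BMMs of 3 h to 428, 463, 502 and 468 CPM with hk S.E. At 20 h Ifnar1 was at 141, 142, 163 and 143 CPM without and at 266, 285, 279 and 258 CPM with hk S.E. Activated libraries lay above unactivated ones at both times without overlap. The fold was 2.55 at 3 h (log2 1.35, SE 0.07) and 1.85 at 20 h (log2 0.89, SE 0.07), with edgeR adjusted p-values of 2.84e-23 and 4.34e-16, and it was 2.62 and 1.79 in Ahr-/- BMMs.

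IFNAR2 is the chain that binds type I interferon with high affinity. Ifnar2 had 106, 99.3, 111 and 102 CPM in unactivated and 219, 237, 256 and 232 CPM in activated Ahr+/+ BMMs of 3 h, and 114, 123, 125 and 126 against 238, 262, 261 and 246 CPM at 20 h. Again the groups were fully separated. The folds were 2.26 at 3 h and 2.06 at 20 h (log2 1.17 and 1.04, SE 0.07 each, adjusted p = 1.64e-21 and 1.62e-19), and 2.2 and 1.79 in Ahr-/- BMMs. Ifnar1 fell between 3 h and 20 h of activation (log2 -0.77, SE 0.07, adjusted p = 6.2e-14 in Ahr+/+), whereas Ifnar2 differed by 0.09 (SE 0.07, adjusted p = 0.237). Within libraries, the ratio of Ifnar1 to Ifnar2 was 1.13-fold higher with activation at 3 h and 0.9 of the unactivated ratio at 20 h in Ahr+/+ BMMs (2-sided exact permutation p = 0.0286 for both, the smallest that 4 against 4 allows, 0.0457 after adjustment over 24 ratio tests). The knockout ratio was 1.19-fold higher at 3 h (p = 0.0286 by the same exact test, adjusted 0.0457) and 1.00-fold at 20 h (exact p = 1). The 24 tests include the activation ratios of Ifngr2 to Ifngr1 and of Ticam1 to Mavs, which had to separate. Their inclusion lowered the adjusted value of 0.0457, here and for the ratios below.

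The subunits of the interferon gamma receptor moved in opposite directions. Ifngr1, the ligand-binding chain, had 179, 184, 170 and 182 CPM in unactivated Ahr+/+ BMMs of 3 h and 100, 96.9, 114 and 104 CPM after 3 h of hk S.E. At 20 h it had 226, 247, 232 and 236 CPM without and 59.0, 62.0, 60.6 and 60.4 CPM with hk S.E. No library of one state reached the other, and the gap was wider at 20 h. Ifngr1 thus stood at 0.58 of its unactivated level at 3 h (log2 -0.79, SE 0.07, adjusted p = 1.31e-14) and at 0.257 at 20 h (log2 -1.96, SE 0.07, adjusted p = 1.23e-30), with 0.598 and 0.26 in Ahr-/- BMMs.

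Ifngr2, the chain that recruits the signalling kinase JAK2, had 123, 124, 135 and 127 CPM in unactivated and 188, 199, 212 and 196 CPM in activated Ahr+/+ BMMs of 3 h, and 120, 127, 131 and 135 against 224, 239, 230 and 241 CPM at 20 h. Its fold was 1.56 at 3 h and 1.82 at 20 h (log2 0.64 and 0.87, SE 0.08 each, adjusted p = 7.82e-10 and 6.37e-14). The ratio of Ifngr2 to Ifngr1 within libraries was 2.69-fold higher with hk S.E. at 3 h and 7.09-fold higher at 20 h in Ahr+/+ BMMs, and 2.30-fold and 6.90-fold higher in Ahr-/- BMMs; since both genes were separated in opposite directions, the ratio had to be, and no test of it is given. Il10rb, which lies among these receptor genes, had a log2 difference of 0.03 at 3 h (SE 0.06, adjusted p = 0.727) and of -0.09 at 20 h (SE 0.06, adjusted p = 0.182) in Ahr+/+ BMMs. The value in Ahr-/- BMMs was 0.16 at 3 h (SE 0.06, adjusted p = 0.0185), and Il10rb was lower at 20 h (-0.31, SE 0.06, adjusted p = 2.06e-05).

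**Figure D2:**
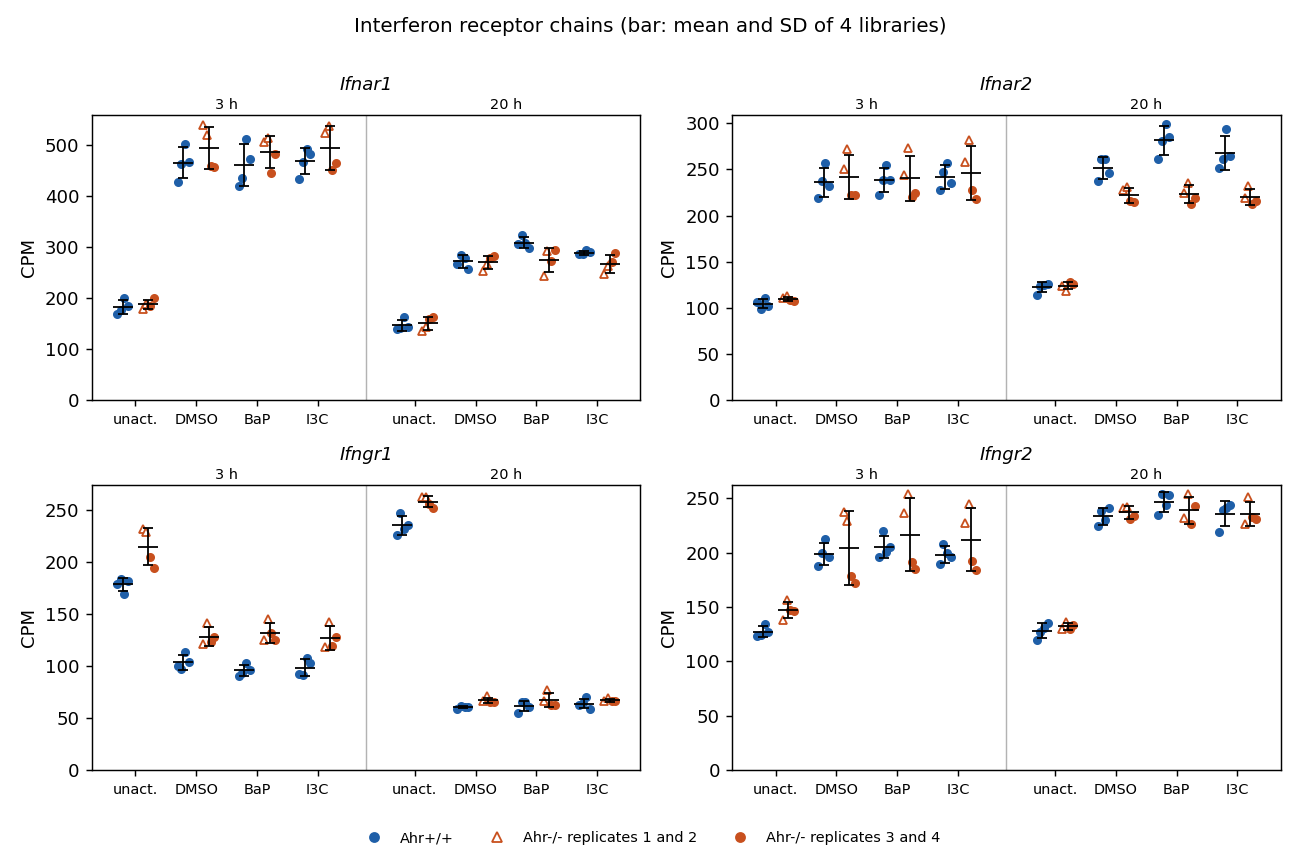
Ifnar1, Ifnar2, Ifngr1 and Ifngr2 in each library, in CPM, by group; for Ahr-/- BMMs, open triangles are replicates 1 and 2 and filled circles replicates 3 and 4. With hk S.E., Ifnar1, Ifnar2 and Ifngr2 lie above and Ifngr1 below the unactivated libraries at both times.

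Among the sensor and adaptors, Cgas rose and fell back. It had 13.0, 13.4, 10.4 and 12.8 CPM in unactivated and 73.5, 76.1, 70.5 and 68.5 CPM in activated Ahr+/+ BMMs of 3 h. By 20 h the activated libraries held 13.7, 13.4, 12.8 and 12.1 CPM and the unactivated ones 11.4, 12.7, 9.44 and 10.7 CPM, and these groups overlapped. The fold was 5.81 at 3 h (log2 2.54, SE 0.16, adjusted p = 8.9e-21) and 1.18 at 20 h (log2 0.23, SE 0.15, adjusted p = 0.174). The knockout had folds of 8.14 (adjusted p = 1.1e-23) and 1.35 (adjusted p = 0.0114). With a replicate block the Cgas value at 20 h in the knockout was called (adjusted p = 3.15e-05), and same-numbered libraries of that comparison deviated together (correlations of 0.319 to 0.521). It was also called without Ahr-/- replicates 1 and 2 (4.53e-06) and without 1 library, which was unactivated replicate 4 (0.00836) or activated replicate 1 (0.00251) or 2 (0.0051).

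Ticam1, whose product TRIF links Toll-like receptors 3 and 4 to the kinases, rose at both times. Unactivated Ahr+/+ BMMs of 3 h had 30.9, 32.7, 32.6 and 31.9 CPM and activated ones 55.8, 47.6, 53.0 and 52.3 CPM. At 20 h the values were 24.7, 26.0, 28.8 and 28.3 CPM without and 69.8, 57.3, 61.1 and 69.0 CPM with hk S.E. The groups were separate at both times and the fold was 1.63 at 3 h and 2.38 at 20 h (log2 0.70, SE 0.15 and 1.25, SE 0.14; adjusted p = 3.06e-05 and 5.09e-11). Folds in the knockout were 2.04 and 1.64.

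Mavs, which encodes the mitochondrial adaptor of the RNA sensors, fell. Its values at 3 h were 48.9, 47.9, 53.9 and 50.0 CPM without and 18.3, 22.2, 25.7 and 20.4 CPM with hk S.E. in Ahr+/+ BMMs. At 20 h they were 57.6, 63.4, 58.9 and 59.8 against 47.4, 43.7, 53.9 and 43.5 CPM, so that the activated libraries had come most of the way back but still lay below. Mavs was at 0.432 of the unactivated level at 3 h (log2 -1.21, SE 0.12, adjusted p = 7.7e-13) and at 0.786 at 20 h (log2 -0.35, SE 0.12, adjusted p = 0.00798). The latter was lost without a filter on low counts (adjusted p = 0.0136), with the identifier series as a covariate (0.0197), and on leaving out any 1 of 7 of the 8 libraries, all but activated replicate 3 (0.0107 to 0.0321). Mavs was at 0.764 of the unactivated level in Ahr-/- BMMs at 20 h (adjusted p = 0.00338). This call was lost without activated replicate 3 (0.0178) or 4 (0.0182), unactivated replicate 1 (0.0221) or Ahr-/- replicates 3 and 4 together (0.0193). The ratio of Ticam1 to Mavs with hk S.E. was 3.79 times the unactivated ratio at 3 h and 3.04 times at 20 h in Ahr+/+ BMMs, and 4.78 and 2.14 times in Ahr-/- BMMs, given without a test for the same reason as that of Ifngr2 to Ifngr1.

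Both kinase genes rose, Ikbke more than Tbk1 at 3 h. Tbk1 is expressed in most cells, and it had 84.4, 85.2, 74.7 and 83.9 CPM in unactivated and 226, 238, 226 and 222 CPM in activated Ahr+/+ BMMs of 3 h. At 20 h Tbk1 had 71.3, 76.4, 77.0 and 72.4 CPM without and 123, 115, 111 and 115 CPM with hk S.E. Ikbke, the inducible relative of Tbk1, had 95.3, 114, 130 and 128 CPM in unactivated and 592, 625, 639 and 622 CPM in activated BMMs of 3 h, and 126, 149, 135 and 155 against 228, 243, 296 and 248 CPM at 20 h. All of these groups were separate.

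The fold of Tbk1 was 2.78 at 3 h and 1.56 at 20 h (log2 1.47 and 0.64, SE 0.08 each, adjusted p = 4.73e-23 and 4.18e-10), and that of Ikbke was 5.31 and 1.79 (log2 2.41 and 0.84, SE 0.11 each, adjusted p = 1.49e-26 and 4.92e-10). Tbk1 rose 2.63-fold and 1.43-fold in Ahr-/- BMMs, and Ikbke 5.03-fold and 1.65-fold. The ratio of Ikbke to Tbk1 was 1.92-fold higher with activation at 3 h in Ahr+/+ BMMs and 1.90-fold in Ahr-/- BMMs (exact permutation p = 0.0286, adjusted 0.0457), and 1.15-fold (p = 0.171) and 1.17-fold (p = 0.314) at 20 h. Per kilobase of exon, unactivated Ahr+/+ BMMs of 3 h had 21.0 ± 1.27 CPM of Tbk1 and 12.9 ± 1.75 of Ikbke, and activated ones 58.3 ± 1.72 of Tbk1 and 68.7 ± 2.23 of Ikbke. On this scale the order of the kinases was turned at 3 h, which rests on the merged exon length of 9018 bases for Ikbke and 3910 for Tbk1: in CPM, Ikbke was above Tbk1 without activation too (117 and 82.1).

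**Figure D3:**
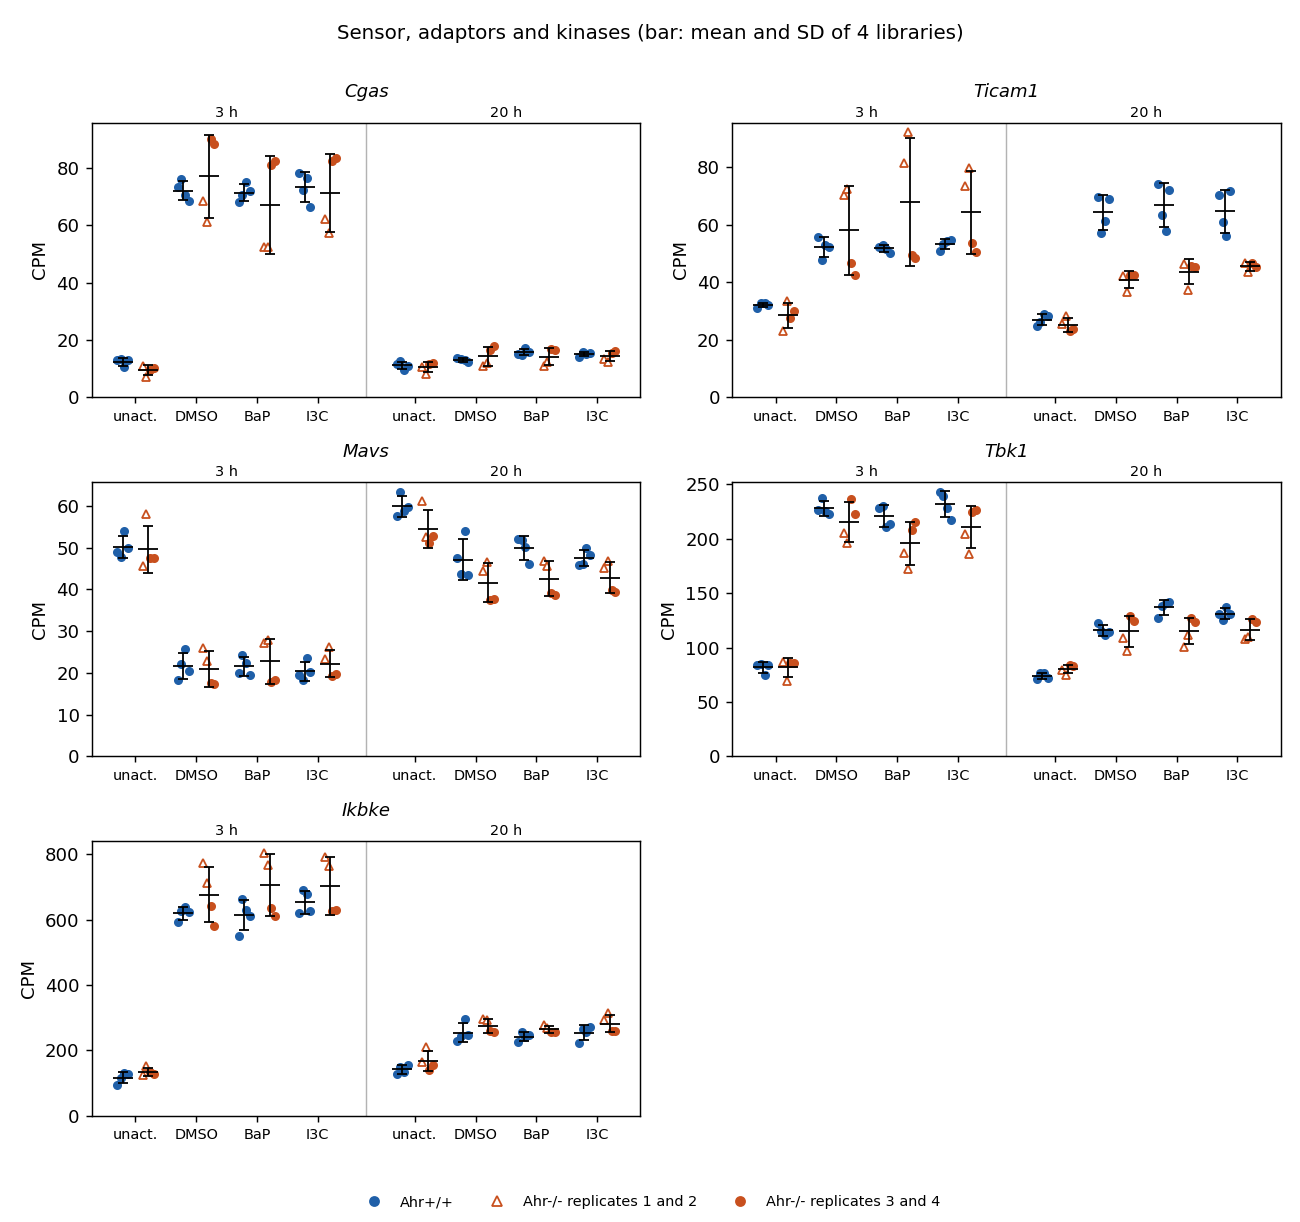
Cgas, Ticam1, Mavs, Tbk1 and Ikbke in each library, in CPM, by group; for Ahr-/- BMMs, open triangles are replicates 1 and 2 and filled circles replicates 3 and 4. At 3 h of hk S.E., Cgas, Tbk1 and Ikbke are at their highest and Mavs is at its lowest, while in Ahr+/+ BMMs Ticam1 is as high or higher at 20 h.

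On the same scale per kilobase the order in Ahr+/+ BMMs activated for 3 h was Ifnar1 (78.3 ± 5.10 CPM per kb), Ifnar2 (70.9 ± 4.71), Ikbke (68.7 ± 2.23), Tbk1 (58.3 ± 1.72), Ifngr2 (52.8 ± 2.73), Ifngr1 (36.4 ± 2.53), Ifnb1 (22.4 ± 5.59), Cgas (17.5 ± 0.802), Ticam1 (17.4 ± 1.14) and Mavs (6.47 ± 0.932). Neighbours in that order from Ifnar1 to Ikbke, and from Ifnb1 to Ticam1, lay less than 2 SD apart, by the larger SD of each pair. Ifnb1 was therefore at a level like those of Cgas and Ticam1. In unactivated BMMs of 3 h Ifngr1 led with 62.7 ± 2.2 CPM per kb and Cgas, apart from Ifnb1, was the lowest with 3.00 ± 0.334.

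Activation effects at 20 h and 3 h were compared within each genotype by an interaction term. In Ahr+/+ BMMs 6 of the 10 genes differed (1 higher and 5 lower at 20 h), against 47.8% of all genes (26.5% higher, 21.3% lower). Those with a smaller rise at 20 h were Cgas (log2 -2.31, SE 0.22), Ikbke (-1.57, SE 0.15), Tbk1 (-0.83, SE 0.11) and Ifnar1 (-0.46, SE 0.10). Ifngr1 had a deeper fall (-1.17, SE 0.10) and Mavs a shallower one (0.86, SE 0.17). Ifnb1 had the largest fitted value and was not called by edgeR, with -4.62 (SE 2.09, adjusted p = 0.0538) in Ahr+/+ and -5.86 (SE 4.36, adjusted p = 0.262) in Ahr-/- BMMs, values that rest on few unactivated reads. DESeq2 (0.00348 and 0.000602) and limma (4.95e-09 and 5.33e-09) called it in both genotypes, and edgeR called it in Ahr+/+ BMMs with a replicate block (0.00656) or without replicates 1 and 2 (0.00496) or 3 and 4 (0.00894) of Ahr-/-. For Ticam1 in Ahr+/+ BMMs the difference was 0.55 (SE 0.20, adjusted p = 0.0181), called with the block (0.00697), in a fit of the groups compared (0.000238) and without either Ahr-/- pair (9.57e-06 and 0.000638). In Ahr-/- BMMs 8 of 10 differed (2 higher and 6 lower, background 44.7%, 25.2% and 19.4%): the same 6 in the same direction, with Ifnar2 (-0.30, SE 0.10, adjusted p = 0.00839) and Ifngr2 (0.37, SE 0.11, adjusted p = 0.00541) in addition, which gave 0.045 and 0.0167 without a filter on low counts. The Ifnar2 call was also lost with series as a covariate (0.0174), in a fit of the groups compared (0.0116) and without either pair of replicates (0.0318 and 0.0288). It was lost too without any 1 of unactivated replicates 1, 3 and 4 at 3 h or at 20 h or activated replicates 3 and 4 of 20 h (0.0121 to 0.0192). The Ifngr2 call was lost under DESeq2 (0.0422), its size factors (0.0513), limma (0.043), a fit of the groups compared (0.0724) and without replicates 3 and 4 (0.234). Single libraries that ended it were unactivated replicate 2 of 3 h, activated replicates 3 and 4 of 3 h and unactivated replicates 1 and 3 of 20 h (0.0101 to 0.0594).

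Time alone, in activated Ahr+/+ BMMs, lowered 6 genes (Ifnb1, Ifnar1, Ifngr1, Cgas, Tbk1 and Ikbke) and raised Mavs 2.18-fold and Ifngr2 1.18-fold (background 59.5%, 33.0% higher and 26.4% lower). The last of these, with an adjusted p of 0.00956, was lost under DESeq2 (0.0653), its size factors (0.0735) and limma (0.0746). Ifngr2 was not called either without a filter on low counts (0.0232), with only the groups compared (0.0177) or without any 1 of 7 of the 8 libraries, all but replicate 1 of 20 h (0.0138 to 0.178). In activated Ahr-/- BMMs 7 genes were lower and Mavs alone was higher (background 56.0%, 31.7% and 24.3%), Ticam1 being the added one (log2 -0.51, SE 0.14, adjusted p = 0.00183). With a replicate block, where same-numbered libraries correlated at 0.312 to 0.366, Ifngr2 was called higher as well (log2 0.22, adjusted p = 0.00139). Ifnar2 was called lower under DESeq2 (log2 -0.22, adjusted p = 0.00178), with its size factors in edgeR (0.00415) and by limma (0.00549). For that genotype 11 of 12 activated libraries of 3 h carried one identifier series and all of 20 h another, and with series as a covariate Ticam1 gave an adjusted p of 0.141 and Ifnb1 a log2 difference of -5.63 with 0.27. The Ticam1 call was lost with only the groups compared (0.0172). It also rested on replicates 1 and 2: without them its log2 difference was -0.07 (adjusted p = 0.555). Without hk S.E., Ifngr1 was higher and Ifnar1 lower at 20 h than at 3 h in both genotypes, and no other gene passed (background 6.07% in Ahr+/+, 3.31% higher and 2.77% lower, and 6.98% in Ahr-/- BMMs, 3.52% and 3.46%). The log2 difference in Ahr+/+ BMMs was 0.40 for Ifngr1 (SE 0.07, adjusted p = 4.67e-05) and -0.31 for Ifnar1 (SE 0.07, adjusted p = 0.00204). The Ifnar1 call was lost without replicate 3 of 3 h (0.0184) or replicate 1, 2 or 4 of 20 h (0.0102 to 0.0113). It was also lost without a filter on low counts (0.0151) and with only the groups compared (0.0101). In Ahr-/- BMMs Ifngr1 (0.27, adjusted p = 0.00616) was lost without replicate 3 or 4 of 3 h or replicate 1, 2 or 3 of 20 h (0.0121 to 0.0521), and Ifnar1 (-0.32, adjusted p = 0.00135) without replicate 4 of 3 h (0.0113) or replicate 1 of 20 h (0.0163). Both were also lost with series as a covariate (0.123 and 0.0699), with only the groups compared (0.148 and 0.0852) and without a filter (0.0206 and 0.0175). Leaving out replicates 3 and 4 ended the Ifngr1 call (0.172), and leaving out replicates 1 and 2 the Ifnar1 call (0.0457). All 4 unactivated Ahr-/- libraries of 20 h were in one series and 3 of 4 of 3 h in another.

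Genotype had a narrower reach. In unactivated BMMs none of the 10 genes was called by edgeR at 3 h or 20 h (background 1.21% and 0.702%). An unadjusted p under 0.05 was reached by 3 of 10 genes at 3 h and 1 at 20 h, DESeq2 called 1 and 0, and limma 0 at both times. The DESeq2 call was Ifngr1, at 232, 229, 205 and 195 CPM in Ahr-/- against 179, 184, 170 and 182 CPM in Ahr+/+ BMMs of 3 h (edgeR log2 0.27, SE 0.07, adjusted p = 0.0221), where the groups did not overlap.

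With hk S.E. at 3 h, Ifngr1 was the only one of the 10 genes to differ between genotypes (background 2.83%, 1.22% higher and 1.61% lower), and it was higher in the knockout. Its values were 121, 141, 123 and 128 CPM in Ahr-/- and 100, 96.9, 114 and 104 CPM in Ahr+/+ BMMs, with no overlap (12.1% of all genes did not overlap). The log2 difference was 0.31 (SE 0.07, edgeR adjusted p = 0.00339). It was also called among libraries given BaP (125, 145, 132 and 125 against 90.7, 93.4, 103 and 96.4 CPM; log2 0.46, SE 0.07, adjusted p = 1.18e-05, background 4.88%). Among libraries given I3C it was called as well (118, 143, 119 and 128 against 92.4, 91.0, 108 and 103 CPM; log2 0.36, SE 0.07, adjusted p = 0.000486, background 2.85%). If a replicate number stands for 1 mouse, these 3 comparisons share their animals.

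The Ifngr1 difference after DMSO was close to the threshold. It gave adjusted p-values of 0.0103 without Ahr-/- replicates 1 and 2 and 0.0174 with identifier series as a covariate, with log2 differences of 0.28 and 0.29. It was also lost without a filter on low counts (0.0213), with only the groups compared (0.0493) and without Ahr+/+ replicate 1 (0.0132), 2 (0.0224) or 4 (0.0107) or Ahr-/- replicate 2 (0.0265). Within the series that held both genotypes at 3 h, the 2 Ahr+/+ libraries after DMSO had 104 to 114 CPM and the 4 Ahr-/- libraries 121 to 141 CPM. The BaP and I3C differences remained past the threshold with series as a covariate (adjusted p = 3.94e-05 and 0.000539) and without either pair of Ahr-/- replicates. The ratio of Ifngr2 to Ifngr1 was 0.822 of that of Ahr+/+ BMMs (exact permutation p = 0.114).

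The Ahr-/- libraries of 3 h divided by replicate for several genes. With hk S.E. after DMSO, Ifnb1 had 6.66 and 3.8 CPM in replicates 1 and 2 against 17.6 and 16.7 in replicates 3 and 4, and Ticam1 had 70.3 and 72.5 against 46.8 and 42.5 CPM. Cgas had 68.6 and 61.0 against 90.3 and 88.6 CPM, and Ikbke 774 and 711 against 640 and 581 CPM. Replicates 1 and 2 were thus lower for Ifnb1 and Cgas and higher for Ticam1 and Ikbke. Across the 8 Ahr-/- groups both of them lay above both others in 7 groups for Ikbke and for Ifnar2 and in 6 for Mavs, and below in 7 for Cgas and for Tbk1. What set the pairs apart was not tested.

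The genotype calls at 3 h followed that division. The pairs were drawn from the split seen in these same libraries, so p-values without 1 pair describe that split and are no separate test of genotype. With replicates 3 and 4 left out, Ifnb1 was lower (log2 -1.71, adjusted p = 0.000205) and Ticam1 higher (log2 0.45, adjusted p = 0.00481) in Ahr-/- BMMs. With replicates 1 and 2 left out, Cgas was higher (log2 0.31, adjusted p = 0.00879), and Ticam1 had a log2 difference of -0.22 (adjusted p = 0.118). With all 4 replicates, the log2 difference of Ifnb1 was -0.59 (SE 0.34, adjusted p = 0.352), that of Ticam1 0.15 (SE 0.14, adjusted p = 0.624) and that of Cgas 0.10 (SE 0.15, adjusted p = 0.801).

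At 20 h of hk S.E., Ifnb1 and Ticam1 were lower in Ahr-/- BMMs, and none of the 10 was higher (background 12.5%, of which 5.06% higher and 7.39% lower). The Ifnb1 values of 0.494, 0.598, 1.48 and 1.02 CPM in Ahr+/+ and of 0.0950, 0.112, 0.368 and 0.110 CPM in Ahr-/- BMMs did not overlap, and the summed ratio was 0.165 (0.0996 to 0.261). The fitted log2 difference was -2.51 (SE 0.59, adjusted p = 0.00134). These are 22 reads in 4 libraries against 122, and limma on variance-stabilised values gave an adjusted p of 0.0754. The call was also lost with only the groups compared (0.0129) and without Ahr+/+ replicate 3 (0.0105) or Ahr-/- replicate 4 (0.0111). Ticam1 was at 42.1, 36.5, 42.5 and 42.5 CPM in Ahr-/- against 69.8, 57.3, 61.1 and 69.0 CPM in Ahr+/+ BMMs (log2 -0.65, SE 0.14, adjusted p = 0.000551).

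Both genes were also called lower in Ahr-/- libraries given BaP or I3C. These comparisons share animals with the one after DMSO and are not independent of it. Ifnb1 had 0.219, 0.314, 0.159 and 0.158 CPM in Ahr-/- against 1.03, 1.17, 1.73 and 1.79 CPM in Ahr+/+ BMMs after BaP (log2 -2.79, SE 0.52, adjusted p = 2.5e-05, background 23.3%). After I3C it had 0, 0.142, 0.141 and 0.167 against 1.12, 0.785, 1.51 and 1.07 CPM (log2 -3.16, SE 0.63, adjusted p = 0.000116, background 15.6%). Ticam1 gave log2 differences of -0.61 (adjusted p = 0.000532) and -0.51 (adjusted p = 0.00614). In these libraries Ifnar2 was lower too, at 225, 235, 212 and 219 against 261, 281, 299 and 285 CPM after BaP (log2 -0.34, adjusted p = 0.000104) and with a log2 difference of -0.28 (adjusted p = 0.00145) after I3C. After DMSO its values of 228, 230, 216 and 215 CPM lay below the 238, 262, 261 and 246 CPM of Ahr+/+ BMMs with a log2 difference of -0.18 (SE 0.07, adjusted p = 0.0545).

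Since no identifier series held activated libraries of both genotypes at 20 h, no value within a series could be had. A fit with series as a covariate, which takes the series difference from other groups, gave log2 differences of -2.05 for Ifnb1 (adjusted p = 0.816) and -0.49 for Ticam1 (adjusted p = 0.12), and none of the 10 genes was called. In the same fit the calls after BaP and I3C were lost for Ifnb1 (0.688 and 0.657), Ticam1 (0.0907 and 0.236) and Ifnar2 (0.0412 and 0.131). The Ifnar2 call after I3C was also lost without Ahr-/- replicates 3 and 4 (0.0152). Without Ahr-/- replicates 1 and 2, Ifnb1 and Ticam1 were still called, as were Ifnar2 (log2 -0.23, adjusted p = 0.0079), Mavs (log2 -0.32, adjusted p = 0.0041) and, in the other direction, Cgas (log2 0.41, adjusted p = 0.00026). The ratio of Ticam1 to Mavs in Ahr-/- BMMs was 0.722 of that in Ahr+/+ BMMs (exact permutation p = 0.0286, adjusted 0.0457 over tests of which some had a fixed outcome).

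Whether the activation effect itself differed between genotypes was tested by an interaction, and none of the 10 genes passed at 3 h or at 20 h (background 0.0138% and 4.41%). By unadjusted p under 0.05 there was 1 at 3 h (Cgas) and 2 at 20 h (Ticam1 and Ifnar2), and neither DESeq2 nor limma called any. The largest of these in size was Ticam1 at 20 h, with a log2 difference of -0.54 between the effects (SE 0.20, adjusted p = 0.0853). The pairs of Ahr-/- replicates decided this: without replicates 1 and 2 Cgas was called at 3 h (0.64, adjusted p = 0.00559), and without replicates 3 and 4 Ticam1 was called at 20 h (-0.70, adjusted p = 0.00277).

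**Figure D4:**
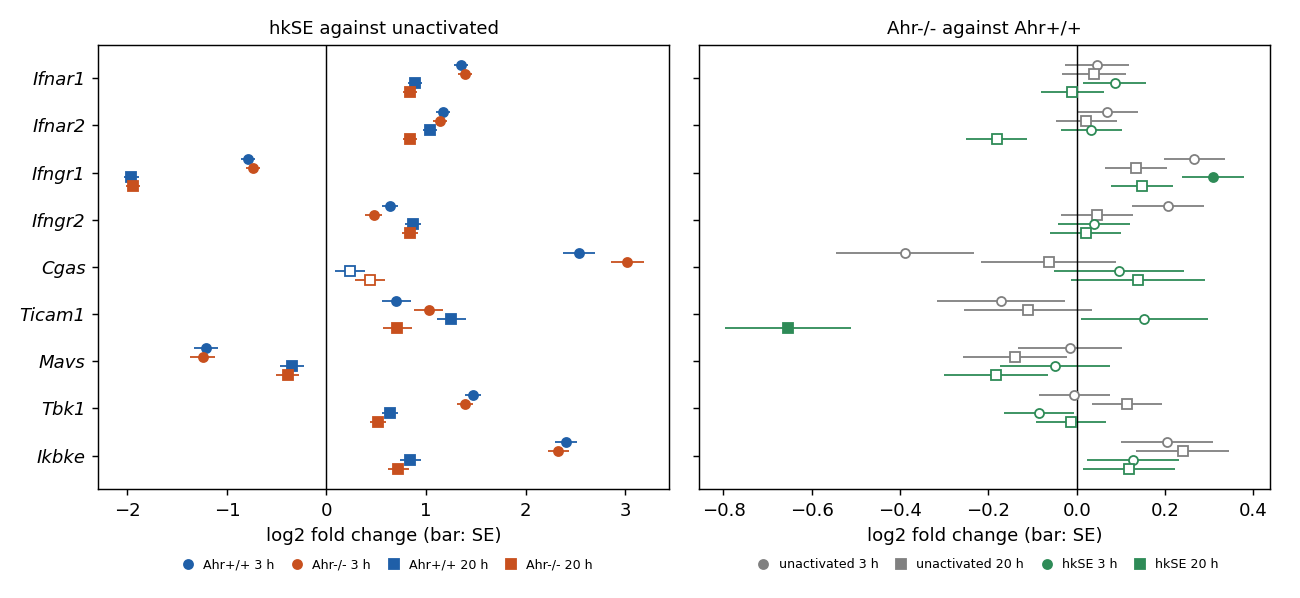
Log2 differences of the genes other than Ifnb1 from the edgeR fit, with standard errors. One panel shows hk S.E. against unactivated BMMs and the other Ahr-/- against Ahr+/+ BMMs, at 3 h and 20 h. Filled symbols passed an adjusted p of 0.01 and open symbols did not. Activation differences reach from -1.96 for Ifngr1 to 3.02 for Cgas. Ligand differences of these genes, which are not drawn, stay within 0.27 in either direction.

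Neither ligand changed any of the 10 genes past the threshold in the edgeR fit without a replicate block. In Ahr+/+ BMMs edgeR called 0 of the 40 values (2 ligands at 2 times), as did DESeq2 and limma, and 4 had an unadjusted p under 0.05. All genes together gave 0.0482% (BaP, 3 h), 0.234% (BaP, 20 h), 0.131% (I3C, 3 h) and 0.509% (I3C, 20 h). In Ahr-/- BMMs 0 of 40 values were called by any of these tools and none had an unadjusted p under 0.05 (backgrounds 0.0275% and 0.0138% for BaP and 0.0206% and 0.206% for I3C, 3 h and 20 h). Doses of BaP and I3C differed, so the ligands were not compared with each other. In edgeR with a replicate block, Tbk1 was called under BaP at 20 h in Ahr+/+ BMMs (adjusted p = 0.0033, background 1.86%). The study itself, by DESeq2 at the same threshold, listed Ifnar1, Ifnar2 and Cgas as raised by BaP at 20 h in Ahr+/+ BMMs only.

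Ifnb1 itself had 17.8, 19.6, 19.4 and 17.9 CPM after BaP and 14.7, 17.4, 17.3 and 18.6 CPM after I3C in Ahr+/+ BMMs activated for 3 h, within the range after DMSO. The log2 differences were 0.15 (SE 0.34) and 0.01 (SE 0.34). At 20 h it had 1.03, 1.17, 1.73 and 1.79 CPM after BaP, and 1.12, 0.785, 1.51 and 1.07 CPM after I3C. These overlapped the DMSO libraries, with log2 differences of 0.64 (SE 0.43, adjusted p = 0.652) and 0.27 (SE 0.45, adjusted p = 1).

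The lowest p among the ligand values belonged to Tbk1. In Ahr+/+ BMMs of 20 h it had 123, 115, 111 and 115 CPM after DMSO, 127, 138, 141 and 142 CPM after BaP and 131, 125, 137 and 131 CPM after I3C. Every library given a ligand was above every DMSO library. The log2 difference was 0.24 for BaP (SE 0.08, unadjusted p = 0.00363, adjusted p = 0.161) and 0.18 for I3C (SE 0.08, adjusted p = 0.68) by edgeR. Leaving Ahr-/- replicates 1 and 2 out of the shared estimate of spread brought the BaP value to an adjusted p of 0.00175.

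Cgas and Ifnar1 showed the same separation at 20 h in Ahr+/+ BMMs, so 3 of the 10 genes did not overlap under BaP (9.05% of all genes) and the same 3 under I3C (5.58%). Cgas had 15, 14.8, 17.1 and 15.9 CPM after BaP and 14.1, 15.8, 15 and 15.4 after I3C, against 13.7, 13.4, 12.8 and 12.1 after DMSO (log2 0.27 and 0.22, SE 0.15 each). Ifnar1 had 306, 325, 307 and 298 CPM after BaP and 286, 287, 295 and 290 after I3C, against 266, 285, 279 and 258 (log2 0.18 and 0.09, SE 0.07 each, adjusted p = 0.291 and 1). Both ligands were set against the same DMSO libraries. BaP differences at 20 h in Ahr-/- BMMs were 0.01 for Tbk1 (SE 0.08), -0.03 for Cgas (SE 0.15) and 0.03 for Ifnar1 (SE 0.07). The difference of the BaP effect between genotypes was not past the threshold for any of the 10 genes at either time (0 by edgeR, DESeq2 and limma, backgrounds 0.0138% at 3 h and 0.00% at 20 h). The nearest was Tbk1 at 20 h (log2 -0.23, SE 0.11, unadjusted p = 0.0439, adjusted p = 0.984). For I3C none passed either, and none had an unadjusted p under 0.05.

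The other genes of the route were taken as lists, whose counts stand against the shares of all genes called with hk S.E. in Ahr+/+ BMMs (24.2% higher and 32.3% lower at 3 h, 29.9% and 28.7% at 20 h) and in Ahr-/- BMMs (25.5% and 31.8%, 28.3% and 26.0%). Of 14 further sensors and adaptors, 10 rose and 1 fell with hk S.E. at 3 h in Ahr+/+ BMMs (median log2 difference 1.13, all genes -0.10). They were led by Ifih1, which encodes the RNA sensor MDA5 (log2 5.40, SE 0.27), by Zbp1, a sensor of Z-form nucleic acids (3.94, SE 0.23), and by Tlr3 (3.65, SE 0.33). The one that fell was Tlr4, the receptor of lipopolysaccharide (-1.15, SE 0.29). At 20 h 9 rose and 2 fell, the falls being Tmem173, which encodes STING (-1.88, SE 0.19), and Tlr4 (-1.24, SE 0.29). The knockout had 9 that rose and 2 that fell at 3 h, and 8 that rose and 1 that fell at 20 h.

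Of 10 partners and substrates of the kinases, 6 rose and none fell at 3 h in either genotype, and 7 rose and 1 fell at 20 h in both. Tank, a scaffold of TBK1, led at 3 h in Ahr+/+ BMMs (log2 3.34, SE 0.18) with Irf7, the inducible interferon regulatory factor (3.20, SE 0.29), and Azi2, another scaffold (2.23, SE 0.18). Irf5 was higher at 3 h (1.15, SE 0.08) and lower at 20 h (-0.62, SE 0.08). Of 12 genes of signalling below the receptors, 11 rose at 3 h in both genotypes and 10 and 12 at 20 h in Ahr+/+ and Ahr-/- BMMs, and none fell. The feedback inhibitors Socs1 (8.47, SE 0.34), Socs3 (8.01, SE 0.21) and Usp18 (5.50, SE 0.27) led in Ahr+/+ BMMs at 3 h.

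Of 8 further class 2 cytokine receptor genes 4 were tested. At 3 h 3 rose in both genotypes, led in Ahr+/+ BMMs by F3, which encodes tissue factor (log2 5.93, SE 0.33), and by Il20rb (3.56, SE 0.19). At 20 h 1 rose and 2 fell in each genotype, the falls being F3 and Il10ra in Ahr+/+ and Il10ra and Il10rb in Ahr-/- BMMs. Between 3 h and 20 h of hk S.E. 3 were lower in Ahr+/+ and all 4 in Ahr-/- BMMs (26.4% and 24.3% of all genes). Neither ligand changed a gene of these 4 lists in either genotype at either time by edgeR.

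The 12 interferon-stimulated genes rose with hk S.E. in Ahr+/+ BMMs at both times, with a median log2 difference of 7.44 at 3 h and 6.14 at 20 h. In Ahr-/- BMMs all 12 rose at 3 h (median 6.84) and 11 at 20 h (median 4.47). Neither ligand changed any of the 12 past the threshold in either genotype at either time by edgeR. The study, by DESeq2 at the same threshold, listed Mx1 as raised by BaP and Irf1 as raised by both ligands at 20 h, in Ahr+/+ BMMs only. In Ahr+/+ BMMs of 20 h the median log2 difference of the 12 genes was 0.36 for BaP and 0.23 for I3C (all genes 0 and 0.004). In Ahr-/- BMMs of 20 h it was -0.007 and 0.07. At 3 h it was -0.02 and 0.06 in Ahr+/+ and -0.14 and -0.03 in Ahr-/- BMMs. Between genotypes none was called at 3 h of hk S.E., and 11 of the 12 were lower in Ahr-/- BMMs at 20 h (7.39% of all genes), with a median log2 difference of -1.27 where that of all genes was 0.01. Mx1 (-2.15, SE 0.36), Rsad2 (-2.09, SE 0.41) and Ifit2 (-1.86, SE 0.45), which encode antiviral effectors, led. The count was 9 without Ahr-/- replicates 1 and 2, 12 without replicates 3 and 4, and 1 with identifier series as a covariate, where the median was -1.14. In the same comparison 4 of the 14 sensors and adaptors were lower and none higher, among them Ddx58, which encodes the RNA sensor RIG-I (log2 -0.64, SE 0.17, adjusted p = 0.00468), and Trim25, the ubiquitin ligase that acts on it (log2 -0.57, SE 0.08, adjusted p = 1.15e-07), where 7.39% of all genes were lower. For the sensors and adaptors the count was 1 lower with series as a covariate, 3 lower and 2 higher without Ahr-/- replicates 1 and 2 (median -0.08, against -0.20 with all) and 6 lower without replicates 3 and 4.

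Over the 16 group means of log2 CPM, Tbk1 ran closest to Ifnar1 among the other members (Pearson r = 0.983) and to Ifnb1 (0.981), while Cgas and Mavs ran in opposite directions (-0.983), as did Ifngr1 and Ifngr2 (-0.923). Ifnar2 followed Ifngr2 (0.932) more closely than it followed Ifnar1 (0.791). Of all tested genes those most like Ifnb1 were Rap1b (0.996), Serpina3f (0.994) and Nt5c3 (0.994), and those most like Ifnar1 were Parp12 (0.996), Usp25 (0.995) and Irak2 (0.994). For Tbk1 they were Mitd1 (0.998), Mdfic (0.996) and Ifih1 (0.996), for Ikbke Notch2 (0.996), Arhgef3 (0.996) and Dusp2 (0.995), and for Cgas they included Kpna3 (0.997) and Ddhd1 (0.997). Mavs ran closest to Rxra (0.995), Ppp6r2 (0.995) and Mfsd11 (0.993), Ifngr1 to Hpgd (0.988), Ephb2 (0.986) and Galnt12 (0.986), and Ifngr2 to Ptges (0.992), H2-Q4 (0.991) and Rab32 (0.990). The closest to Ifnar2 were Gm43814 (0.992), Tnfrsf8 (0.991) and Gsdmd (0.990), and to Ticam1, at lower values, Syvn1 (0.983), Ube2j2 (0.981) and Tmem39a (0.978). Groups share animals and most of their spread is that of activation and time, so these values describe likeness over 16 points only.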

How the data were processed

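RNA of 64 BMM libraries (stranded TruSeq mRNA, single flow cell) was read out by the authors, who per the methods trimmed with AdapterRemoval, aligned with HISAT2 2.1.0 to mm10 with GENCODE annotation and counted reads per gene with HTSeq 0.9.1 (strand-specific, intersection-strict); tool versions are those of the submitters' notes, with bcl2fastq 2.19.0.316. The authors deposited raw counts per gene and library and a DESeq2 variance-stabilised table on a log2 scale; the latter was used only for limma. Non-gene rows were left out (no feature 3.41 to 5.92%, not unique 12.4 to 15.8%, low quality 0.831 to 5.63%, ambiguous 1.06 to 1.61%, not aligned 0.350 to 0.852% of all rows).

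Counts were fitted with edgeR 4.0.16 in R 4.3.3 (filterByExpr with a minimum count of 10, TMM, quasi-likelihood test) as 16 group means over all 64 libraries (48 residual degrees of freedom), without a replicate block, since the labels tie no number to a mouse (the check of same-numbered libraries stands in the closing section). P-values were Benjamini-Hochberg adjusted over 14537 genes in each of 28 comparisons, and 0.01 was the threshold, as in the study's methods. CPM use TMM-scaled library sizes. Overlap between groups was read from CPM. The members, gene lists, motifs and tests were chosen with earlier results of these data known. All 10 members are named; of each list, the called genes of largest log2 difference (at most 3 per direction); and the 3 genes most like each member, of which 1 is not reported here, nor is 1 motif searched. Genotype within BaP or I3C, within-library ratios, the motif AANNGAAA and the leaving out of either pair of Ahr-/- replicates were added after the data were seen. Each ratio was tested by an exact 2-sided permutation over 70 regroupings. Alternatives were DESeq2 1.42.0, its size factors, limma 3.58.1, no filter, only the groups compared, a replicate block, identifier series as covariate, a threshold of 0.05, leaving out each library and leaving out either pair of Ahr-/- replicates. A value counted as reversed where its sign turned and both unadjusted p-values were below 0.32. The scripts were tested on simulated counts. Promoter windows are RefSeq GRCm38.p6, of the same build as mm10; protein sequences were not used here.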

Additional observations from a re-analysis of the deposited data

Results flagged for a closer look

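Within groups of 4, a highest or lowest library was checked for standing far from the other 3, in 160 combinations of gene and group, and 14 did so; chance alone gives about 1 in 20. For Ifnb1 these were 0.0474 CPM (Ahr+/+, 3 h) and 0.0304 CPM (Ahr-/-, 3 h), 0.0202 CPM (Ahr+/+, 20 h) and 0.0230 CPM (Ahr-/-, 20 h) in unactivated groups whose other libraries held no read. With hk S.E. at 20 h they were 0.368 CPM in Ahr-/- BMMs after DMSO (replicate 3) and 0 CPM after I3C (replicate 1). The Ifnb1 value of 0.0202 CPM came from 6 reads in the library with the highest total.

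In unactivated Ahr+/+ BMMs, Ifnar1 was high at 163 CPM (20 h, replicate 3) and Tbk1 low at 74.7 CPM (3 h, replicate 3). The remaining ones were Ahr-/- libraries of replicates 1 and 2. Unactivated, Tbk1 had 69.0 CPM and Mavs 58.0 CPM (both 3 h, replicate 2), and Mavs had 61.2 CPM (20 h, replicate 1). Activated for 20 h, replicate 2 had 36.5 CPM of Ticam1 after DMSO, 37.2 CPM of Ticam1 after BaP and 69.0 CPM of Ifngr1 after I3C.

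The activation effect at 20 h differed from that at 3 h, by the interaction test of edgeR, for 14 values. In Ahr+/+ BMMs the log2 difference of the effects was -0.46 for Ifnar1, -1.17 for Ifngr1, -2.31 for Cgas, -0.83 for Tbk1, -1.57 for Ikbke and 0.86 for Mavs. In Ahr-/- BMMs it was -0.55 for Ifnar1, -0.30 for Ifnar2, -1.20 for Ifngr1, 0.37 for Ifngr2, -2.59 for Cgas, -0.88 for Tbk1, -1.61 for Ikbke and 0.86 for Mavs. The 6 genes of Ahr+/+ BMMs had the same sign in Ahr-/- BMMs.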

How the results depend on the processing

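Of 280 gene-level values, 269 were recomputed without a change of direction or side of the threshold when Ahr-/- replicates 3 and 4 were left out, and 256 when replicates 1 and 2 were. The numbers were 277 with DESeq2 size factors, 272 without a filter on low counts, 273 with DESeq2, 274 with limma, 271 with identifier series as a covariate, 273 at a threshold of 0.05, 262 of 273 with only the groups compared (where Ifnb1 could fall below the filter) and 2829 of 2880 on leaving out each library. The count of genotype calls, 3, became 1 with only the groups compared, 0 with the series covariate, 6 without replicates 1 and 2 and 5 without replicates 3 and 4. That of interaction calls, 14, became 17 without replicates 1 and 2 and 16 without replicates 3 and 4. The count for ligands in Ahr+/+ BMMs, 0, became 1 without replicates 1 and 2 (Tbk1, BaP, 20 h). Without replicates 1 and 2, Ticam1 turned direction in Ahr-/- against Ahr+/+ BMMs at 3 h of hk S.E. (log2 -0.22) and in the activation effect of Ahr-/- BMMs at 20 h against 3 h (0.22). The cause was not tested. Leaving out each library gave 36 to 38 calls for activation, 18 to 20 for time, 2 to 3 for genotype, 0 for ligands in either genotype and 12 to 14 for interactions.

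Replicate numbers were not stated to pair samples. Deviations of same-numbered libraries from their group means correlated above 0.1 in 19 of 32 Ahr+/+ pairs (0.0347 to 0.255) and in 30 of 32 Ahr-/- pairs (-0.211 to 0.643), and in all 4 pairs of 7 of 16 comparisons, 6 of them in Ahr-/- BMMs. With a replicate block, activation calls went from 37 to 39, time from 20 to 25, ligands in Ahr+/+ BMMs from 0 to 1 (Tbk1, BaP, 20 h, adjusted p = 0.0033) and interactions from 14 to 16, and 230 of 240 values kept their side. Replicates lie within a genotype, so the block takes the spread between mice out of a comparison of genotypes and is no test of it. The blocked fit called 2 and 0 of the 10 genes without and 2 and 3 with hk S.E. (3 h, 20 h), against 0, 0, 1 and 2, and these calls are not used.

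Depth limits Ifnb1 most, with 22 reads in the 4 activated Ahr-/- libraries of 20 h and 1 in the 4 unactivated ones.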
